A study of Mus musculus with 20 samples.

Results

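The subunits and inhibitors of the transcription factor NF-κB were followed through bone marrow-derived dendritic cells (BMDCs) treated with iBET and stimulated with immune complexes. The members are 10 genes, listed by symbol: the subunit genes Nfkb1, Nfkb2, Rela, Relb and Rel, the genes of the cytoplasmic inhibitors Nfkbia, Nfkbib and Nfkbie, the gene of the nuclear IκB protein Nfkbiz, and Tnfaip3. The members and the gene lists used below were chosen with earlier results of these data known. All 10 were found among the 24421 genes of the count table, and all 10 were among the 12465 genes that passed the filter on low counts and were tested. Bone marrow of 5 mice, called A to E, was cultured for 8 days with 40 ng/mL GM-CSF to give BMDCs. The methods name wild-type C57BL/6 mice and report the use of animals of both sexes throughout, and they do not give the strain, sex or age of each of these 5 animals. Portions of each culture then received ovalbumin (Ova) or Ova bound by IgG into immune complexes (IC) for 4 hours, with the DMSO solvent (5% in the labels) or with 3.3 μM I-BET151 (iBET), a small molecule that occupies the bromodomains of the BET proteins. The groups are named DMSO Ova and DMSO IC, and iBET Ova and iBET IC (IBET in the sample labels), with 5 libraries each, and total RNA was sequenced in bulk. Every library therefore comes from cells grown in GM-CSF and exposed to ovalbumin, and no untreated group enters these comparisons. The labels give no DMSO content for the iBET groups, so iBET and a difference in solvent cannot be told apart. They also state that drug and stimulus were added together, where the methods have iBET added shortly before.

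NF-κB is a dimer of Rel-family proteins. In resting cells IκB proteins hold the dimer in the cytoplasm, and signals from Fcγ receptors, Toll-like receptors or cytokine receptors free it by having the IκB kinases mark IκB for destruction. Free NF-κB enters the nucleus and switches on inflammatory genes, and among its known targets are several of its own subunits and inhibitors, which close feedback loops. Rela and Rel are among the subunit genes whose proteins carry activation domains. Nfkb1 and Nfkb2 encode precursors that are cut to the DNA-binding p50 and p52 proteins, and Relb acts mostly with p52 in dendritic cells. BET proteins bind acetylated histones.

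Promoter sequences are shown to set the members beside the DNA element through which NF-κB acts, the κB site. The windows are the 250 bases before a RefSeq start site on GRCm38.p6, and the κB consensus motif was searched on both strands. Matches to it may overlap, shifted by 1 base. Of the 7 members with a window, 5 held at least 1 match (Nfkb2, Rel, Nfkbia, Nfkbie and Tnfaip3) and 2 held none (Rela and Nfkbib), while 8.23% of the 27025 genes with a window held a match. The windows of Nfkbia and Nfkbie are shown in full, and each reads 5′ to 3′ on the strand of the gene with the match in capitals. Their start sites lie within 3 bases of the annotated start of the gene. The Nfkbia window is on the minus strand of chr12:55492648-55492897, and the match ends 19 bases before the start site. The Nfkbie window is on the plus strand of chr17:45555450-45555699, and the match ends 96 bases before the start site.
Nfkbia: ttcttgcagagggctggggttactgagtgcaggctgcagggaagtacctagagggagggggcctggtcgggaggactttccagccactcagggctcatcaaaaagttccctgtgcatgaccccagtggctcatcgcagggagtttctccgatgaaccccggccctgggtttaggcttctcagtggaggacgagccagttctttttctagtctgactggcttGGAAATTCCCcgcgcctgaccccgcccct
Nfkbie: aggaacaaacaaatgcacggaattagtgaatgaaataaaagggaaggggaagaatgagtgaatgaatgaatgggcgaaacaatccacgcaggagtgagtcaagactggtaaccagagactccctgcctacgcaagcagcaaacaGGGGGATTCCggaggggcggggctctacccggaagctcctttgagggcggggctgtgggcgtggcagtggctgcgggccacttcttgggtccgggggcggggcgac

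Nfkb2 has 3 windows and Tnfaip3 has 2, and the one nearest the annotated start of the gene is described. In the counts and shares of genes with matches, each gene entered with its window of most matches. For Nfkb2 and Tnfaip3 this is the window described. The start site of that window lies 417 bases inside the annotated gene for Nfkb2 and 247 bases inside it for Tnfaip3. For Rel it lies 1 base from the annotated start. For Tnfaip3, Nfkb2 and Rel only 30 bases around a match are given. The Tnfaip3 window held 2 separate matches on the minus strand, at chr10:19015516-19015545 and next to the start site at chr10:19015411-19015440. The Nfkb2 window also held separate sites, on the plus strand at chr19:46304688-46304717 and next to the start site at chr19:46304707-46304736, and the first of them is a pair of overlapping matches. The Rel window held a pair of overlapping matches, and its segment lies on the minus strand at chr11:23771042-23771071. Capitals mark 1 match of each pair.
Tnfaip3, upstream match: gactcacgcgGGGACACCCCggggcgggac
Tnfaip3, match next to the start site: gtgactggaatttccatcGGAAATCCCCct
Nfkb2, upstream match: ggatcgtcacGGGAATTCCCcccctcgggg
Nfkb2, match next to the start site: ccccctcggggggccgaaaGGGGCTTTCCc
Rel: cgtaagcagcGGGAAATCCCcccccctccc
With overlapping matches counted, Nfkb2 had 3 matches and Rel and Tnfaip3 had 2 each, so 3 of 7 members had at least 2, as did 1.20% of the genes with a window. These letters describe the windows, and binding was not measured here. Of the 5 members with a match, Nfkbia, Nfkbie and Tnfaip3 rose with IC in the comparisons below, while Nfkb2 passed the test for IC only with the mouse as a block in the fit, and Rel passed in neither fit. Of the 2 without a match, Nfkbib likewise passed for IC only with the block, and Rela in neither fit.

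Levels are given as CPM, the counts scaled to the size of each library with TMM factors, and differences as log2 fold changes of edgeR's quasi-likelihood fit with their standard error (SE) and a p adjusted by Benjamini-Hochberg over all 12465 genes. A gene is said to rise or fall where that adjusted p was under 0.05. Each value by library is listed in the order of mice A, B, C, D and E. Per kilobase of exon, Nfkbia was the most abundant member in DMSO Ova, at 81.5 ± 17.4 CPM per kb (SD, n = 5). Nfkb2 followed at 32.0 ± 12.9, Rela at 23.1 ± 3.37, Relb at 23.0 ± 9.84 and Nfkb1 at 20.2 ± 6.63 CPM per kb. Lower levels per kb were those of Nfkbib (12.2 ± 3.72), Nfkbie (9.64 ± 3.34), Tnfaip3 (6.83 ± 2.25), Rel (6.68 ± 3.30) and Nfkbiz (2.66 ± 0.422). Between neighbours in this order, the gap was larger than the sum of both SDs from Nfkbia to Nfkb2 and from Rel to Nfkbiz, and smaller at every other step. The lengths are unions of all annotated exons, 12061 bases for Nfkb1, so the order depends on the length used. In CPM not divided by length, Nfkb1 averaged 243, Nfkb2 147 and Nfkbia 131 in DMSO Ova.

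**Figure D1:**
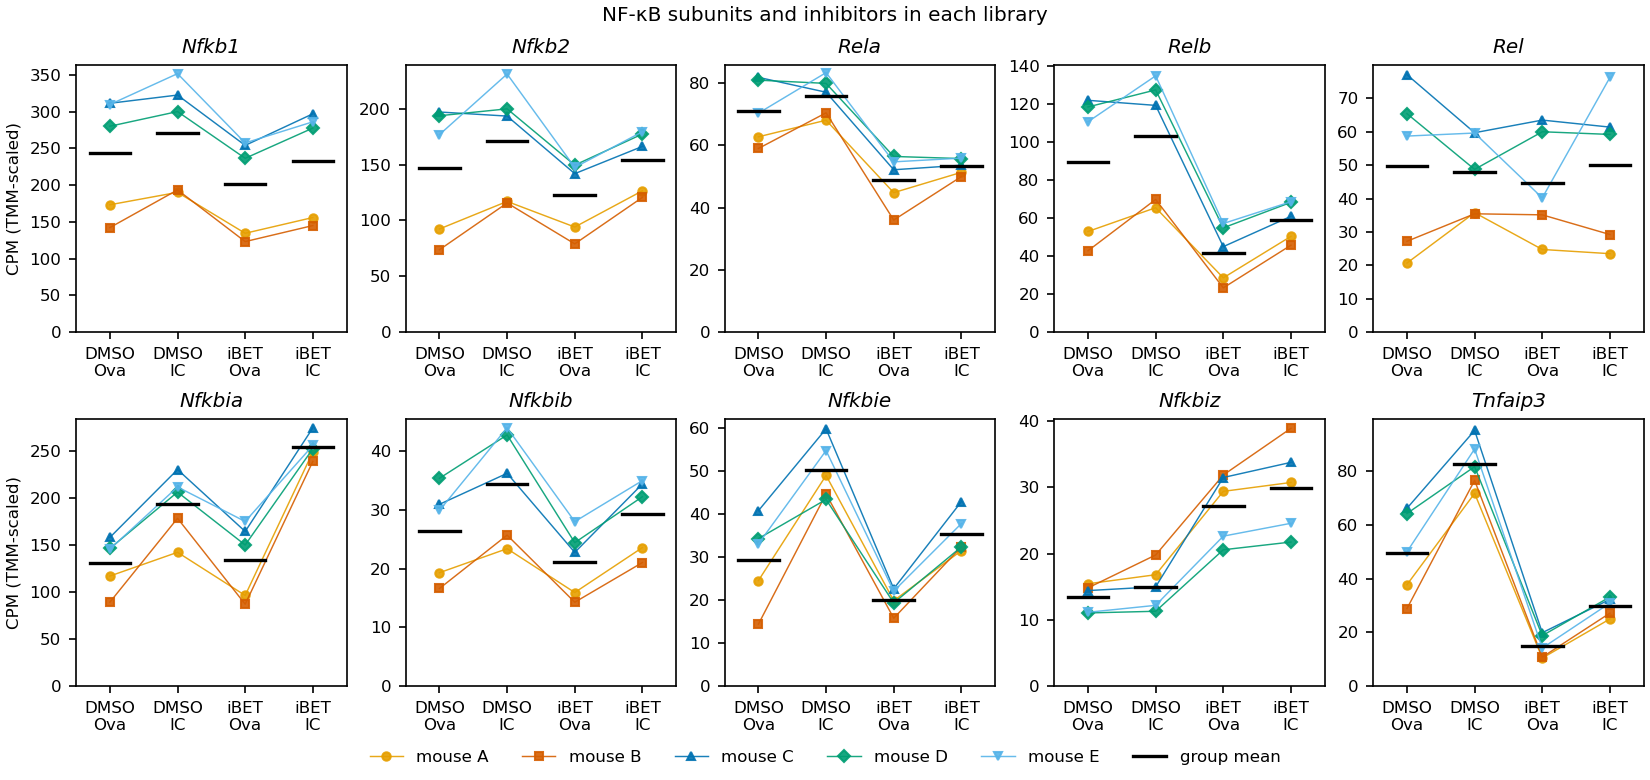
Level of each member in CPM (vertical axes, from 0, with a scale per gene) in the 4 groups, with 1 coloured line per mouse and a black bar for the mean of 5 libraries. Tnfaip3 has its lowest values in the iBET groups (10.4 to 33.1 CPM, against 28.8 to 95.2 CPM with DMSO), Nfkbiz has its highest there, and Nfkb1, Nfkb2 and Relb run at separate heights in mice A and B and in mice C, D and E.

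iBET lowered the transcripts of the subunits Relb and Rela in both stimulations. Those of Nfkb1, Nfkb2 and Rel stayed short of the threshold without the mouse as a block, and Nfkb1 passed with it. Relb, the subunit of the non-canonical pathway that supports dendritic cell maturation, stood at 52.9, 42.7, 122, 118 and 111 CPM in DMSO Ova and at 28.5, 23.3, 44.9, 54.8 and 57.1 CPM in iBET Ova. With IC it read 65.4, 69.7, 119, 127 and 135 CPM under DMSO and 50.3, 45.7, 60.9, 68.2 and 68.5 CPM under iBET. Every mouse had less Relb under iBET than under DMSO, although the groups overlapped because mice A and B began lower. The log2 fold change was -1.10 ± 0.31 (SE, adjusted p = 0.00461) with Ova and -0.82 ± 0.30 (adjusted p = 0.0273) with IC. The call with IC was lost when mouse C, D or E was left out (adjusted p = 0.0968, 0.0744 and 0.0815). With all 5 mice and the mouse as a block it passed (adjusted p = 1.37e-05).

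Rela, which encodes the p65 subunit of the canonical dimer, was the steadiest subunit between mice. It stood at 62.7, 59.0, 81.8, 80.9 and 70.3 CPM in DMSO Ova and at 44.8, 36.0, 52.2, 56.4 and 54.7 CPM in iBET Ova. With IC the values were 68.1, 70.4, 77.1, 79.9 and 83.4 CPM under DMSO and 51.3, 50.0, 53.6, 55.7 and 55.9 CPM under iBET. No iBET library reached the lowest DMSO library of the same stimulation. Rela fell in both, with log2 fold changes of -0.54 ± 0.11 with Ova (adjusted p = 0.000327) and -0.51 ± 0.11 with IC (adjusted p = 0.000575), and the adjusted p stayed under the threshold in all 16 alternative settings of both comparisons. IC did not move Rela past the threshold, with log2 fold changes of 0.09 ± 0.11 under DMSO (adjusted p = 0.600) and 0.13 ± 0.11 under iBET (adjusted p = 0.525).

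Nfkb1, the precursor of p50, ranged from 142 to 312 CPM in DMSO Ova, 190 to 352 CPM in DMSO IC, 123 to 258 CPM in iBET Ova and 145 to 297 CPM in iBET IC. Its differences were small beside the spread between mice, at -0.28 ± 0.28 and -0.23 ± 0.28 for iBET with Ova and with IC, and 0.16 ± 0.28 and 0.21 ± 0.28 for IC under DMSO and under iBET (adjusted p = 0.421, 0.512, 0.748 and 0.707). The direction was nevertheless the same in 5 of 5 mice in each of these 4 comparisons. With the mouse as a block in the fit, all 4 passed, with Nfkb1 lower under iBET (adjusted p = 0.000107 and 0.000318) and higher with IC (adjusted p = 0.00892 and 0.00488).

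Nfkb2, the precursor of p52, ranged from 73.7 to 197 CPM in DMSO Ova, 116 to 231 CPM in DMSO IC, 79.0 to 150 CPM in iBET Ova and 121 to 179 CPM in iBET IC. For iBET the log2 fold changes were -0.26 ± 0.27 with Ova and -0.15 ± 0.27 with IC (adjusted p = 0.424 and 0.645), and they passed neither with nor without the block. IC gave 0.22 ± 0.27 under DMSO and 0.33 ± 0.27 under iBET (adjusted p = 0.615 and 0.486), which passed with the mouse as a block (adjusted p = 0.0413 and 0.00920). Relb showed the like for IC under iBET, at 0.49 ± 0.30 (adjusted p = 0.332, and 0.00163 with the block), but not under DMSO, at 0.21 ± 0.30 (adjusted p = 0.682, and 0.0893 with the block).

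Rel, which encodes the c-Rel subunit, was the member with no call in either fit. It stood at 20.7, 27.2, 77.1, 65.5 and 58.7 CPM in DMSO Ova and at 35.8, 35.4, 59.7, 48.8 and 59.6 CPM in DMSO IC. Under iBET it read 24.8, 35.1, 63.5, 60.0 and 40.2 CPM with Ova and 23.5, 29.2, 61.4, 59.2 and 76.3 CPM with IC. The groups overlapped in all 4 comparisons, and the mice disagreed in direction in each of them. The log2 fold changes were -0.16 ± 0.36 and 0.06 ± 0.36 for iBET with Ova and with IC, and -0.06 ± 0.36 and 0.16 ± 0.36 for IC under DMSO and under iBET (adjusted p = 0.731, 0.909, 0.939 and 0.839). The last of these rested on mouse E, in which Rel was 1.90-fold higher with IC, and it turned to -0.08 without that mouse.

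Among the cytoplasmic inhibitors, IC raised Nfkbia and Nfkbie, and iBET lowered Nfkbie, in the fit without the mouse as a block. With the block, Nfkbib was also lower with iBET and higher with IC, and Nfkbia was higher under iBET with IC. Nfkbia encodes IκBα, an inhibitor that NF-κB itself induces. It stood at 117, 89.2, 158, 146 and 146 CPM in DMSO Ova and at 142, 179, 230, 206 and 212 CPM in DMSO IC. Under iBET it stood at 96.3, 87.0, 165, 150 and 175 CPM with Ova and at 249, 239, 275, 253 and 256 CPM with IC. Each mouse had more Nfkbia with IC than with Ova under either treatment, and the iBET IC libraries lay above all libraries of the other groups. IC raised it by 0.56 ± 0.18 on the log2 scale under DMSO (adjusted p = 0.0351) and 0.92 ± 0.18 under iBET (adjusted p = 0.00274). The call under DMSO was lost without mouse B, C, D or E (adjusted p = 0.0606, 0.0959, 0.109 and 0.0849), in mice A and B alone (0.63, adjusted p = 0.0537) and with scaling by library size only (0.45, adjusted p = 0.0941). With the mouse as a block it passed (adjusted p = 0.000529).

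For iBET, Nfkbia gave 0.04 ± 0.18 with Ova (adjusted p = 0.879). With IC it gave 0.39 ± 0.18 (adjusted p = 0.0745), with more Nfkbia under iBET in 5 of 5 mice and no overlap between the groups. This difference passed with the mouse as a block (0.42 ± 0.11, adjusted p = 0.00251) and in 6 of 16 alternative settings in all.

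Nfkbie encodes IκBε, an inhibitor that acts mainly on Rela and Rel dimers. It stood at 24.5, 14.3, 40.7, 34.2 and 33.0 CPM in DMSO Ova and at 48.9, 44.6, 59.7, 43.3 and 54.7 CPM in DMSO IC. Under iBET the values were 19.8, 15.7, 22.6, 19.3 and 22.0 CPM with Ova and 31.4, 32.3, 42.8, 32.3 and 37.7 CPM with IC. IC and Ova libraries did not overlap under either treatment. IC raised Nfkbie by 0.77 ± 0.19 under DMSO (adjusted p = 0.00703) and 0.83 ± 0.19 under iBET (adjusted p = 0.00803). The second call was lost in the fit of mice A and B alone (0.85, adjusted p = 0.0793).

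For Nfkbie, iBET gave a fall of -0.56 ± 0.19 on the log2 scale with Ova (adjusted p = 0.0167) and -0.51 ± 0.19 with IC (adjusted p = 0.0264). With Ova the level was lower in 4 of 5 mice and 1.10-fold higher in mouse B. In mice A and B alone the difference with Ova was -0.14 (adjusted p = 0.622), and in the other 3 mice it was -0.71. The call with Ova was also lost without mouse C, D or E (adjusted p = 0.0688, 0.0893 and 0.0582) and in the fit of only the 10 libraries compared (adjusted p = 0.0595). The call with IC was lost without mouse A, D or E (adjusted p = 0.0832, 0.0642 and 0.0821) and in mice A and B alone (adjusted p = 0.0645). With mouse as a block both passed (adjusted p = 0.00116 and 0.00118).

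Nfkbib, the gene of IκBβ, ranged from 16.6 to 35.4 CPM in DMSO Ova, 23.4 to 44.0 CPM in DMSO IC, 14.3 to 28.0 CPM in iBET Ova and 21.02 to 34.98 CPM in iBET IC. Its log2 fold changes for iBET were -0.33 ± 0.24 with Ova and -0.24 ± 0.23 with IC (adjusted p = 0.249 and 0.402), and with the block it passed in both (adjusted p = 0.000718 and 0.00986). For IC they were 0.38 ± 0.23 under DMSO and 0.47 ± 0.24 under iBET (adjusted p = 0.278 and 0.219), again past the threshold with the block (adjusted p = 0.000342 and 7.49e-05). IC libraries were above Ova libraries in 5 of 5 mice under both treatments. The gene overlaps Sirt2 on the other strand (683 to 1691 counts per library), and reads of the pair cannot be told apart if strand was not used in counting, which is not given in the sources used here.

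Nfkbiz was the member that rose with iBET in the fit without the block. It encodes IκBζ, an inducible nuclear protein that works with p50 at a subset of secondary inflammatory genes rather than holding NF-κB in the cytoplasm. Its levels were 15.4, 14.8, 14.4, 11.0 and 11.1 CPM in DMSO Ova and 29.4, 31.9, 31.5, 20.6 and 22.6 CPM in iBET Ova. With IC they were 16.8, 19.8, 15.0, 11.3 and 12.2 CPM under DMSO and 30.8, 38.9, 33.8, 21.7 and 24.6 CPM under iBET. The lowest iBET library lay above the highest DMSO library for each stimulation. The level was 2.03-fold higher with Ova (log2 fold change 1.02 ± 0.18, adjusted p = 6.7e-05) and 2.00-fold higher with IC (1.00 ± 0.18, adjusted p = 8e-05), and both calls were made in all 16 alternative settings. Within single mice the ratio ran from 1.83-fold to 2.26-fold over both stimulations. IC left it at 0.17 ± 0.18 under DMSO and 0.14 ± 0.17 under iBET (adjusted p = 0.571 and 0.674), with higher values in 5 of 5 mice in each and no call with the block (adjusted p = 0.0793 and 0.108).

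Tnfaip3 had the largest differences of the 10 members in both iBET comparisons. It encodes A20, a ubiquitin-editing enzyme that stops signalling upstream of the IκB kinases. It stood at 37.7, 28.8, 66.2, 64.2 and 50.0 CPM in DMSO Ova and at 10.4, 10.7, 19.8, 18.7 and 14.1 CPM in iBET Ova. With IC the values were 71.7, 76.6, 95.2, 81.7 and 88.3 CPM under DMSO and 24.9, 27.1, 32.2, 33.1 and 30.9 CPM under iBET. The groups did not overlap in any of the 4 comparisons. iBET lowered Tnfaip3 3.36-fold with Ova (log2 fold change -1.75 ± 0.21, adjusted p = 7.06e-07) and 2.79-fold with IC (-1.48 ± 0.20, adjusted p = 4.12e-06), and both held in all 16 alternative settings. IC raised it in 5 of 5 mice under each treatment, by 0.74 ± 0.20 under DMSO (adjusted p = 0.0129) and 1.01 ± 0.21 under iBET (adjusted p = 0.00367). The call for IC under DMSO was lost without mouse E (0.72, adjusted p = 0.0677), and with all mice and the block it passed (adjusted p = 2.32e-05). Its mean was 29.7 ± 3.50 CPM (SD, n = 5) in iBET IC and 49.4 ± 16.3 CPM in DMSO Ova.

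Counted over the members, iBET with Ova gave 1 of 10 higher and 4 of 10 lower, where 27.7% and 28.9% of all tested genes were called higher and lower. With IC the counts were again 1 higher and 4 lower, beside 27.1% and 29.0% of all genes, and the genes were the same: Nfkbiz higher, and Rela, Relb, Nfkbie and Tnfaip3 lower. The median log2 fold change of the members was -0.30 with Ova and -0.23 with IC, against -0.0029 and -0.0054 for all tested genes. IC gave 3 of 10 higher and 0 of 10 lower under DMSO and again 3 and 0 under iBET, in both cases Nfkbia, Nfkbie and Tnfaip3. Of all tested genes 9.59% were called higher and 10.7% lower under DMSO, and 5.19% higher and 6.63% lower under iBET. The members' median was 0.22 under DMSO and 0.40 under iBET, and that of all tested genes -0.024 and -0.014.

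The libraries of a mouse share their culture, and with the mouse as a block the counts of members rose to 1 higher and 6 lower for iBET with Ova (all genes 33.5% and 35.2%) and 2 higher and 6 lower with IC (32.6% and 35.4%). For IC they rose to 6 higher and 0 lower under DMSO (18.3% and 19.8% of all genes) and 7 higher and 0 lower under iBET (14.2% and 14.7%). Scaling by library size only, without TMM, moved the median of all genes to -0.13 for IC under DMSO and -0.12 under iBET, and the members' medians to 0.10 and 0.29. The comparisons share groups of libraries, so they are not separate lines of evidence.

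**Figure D2:**
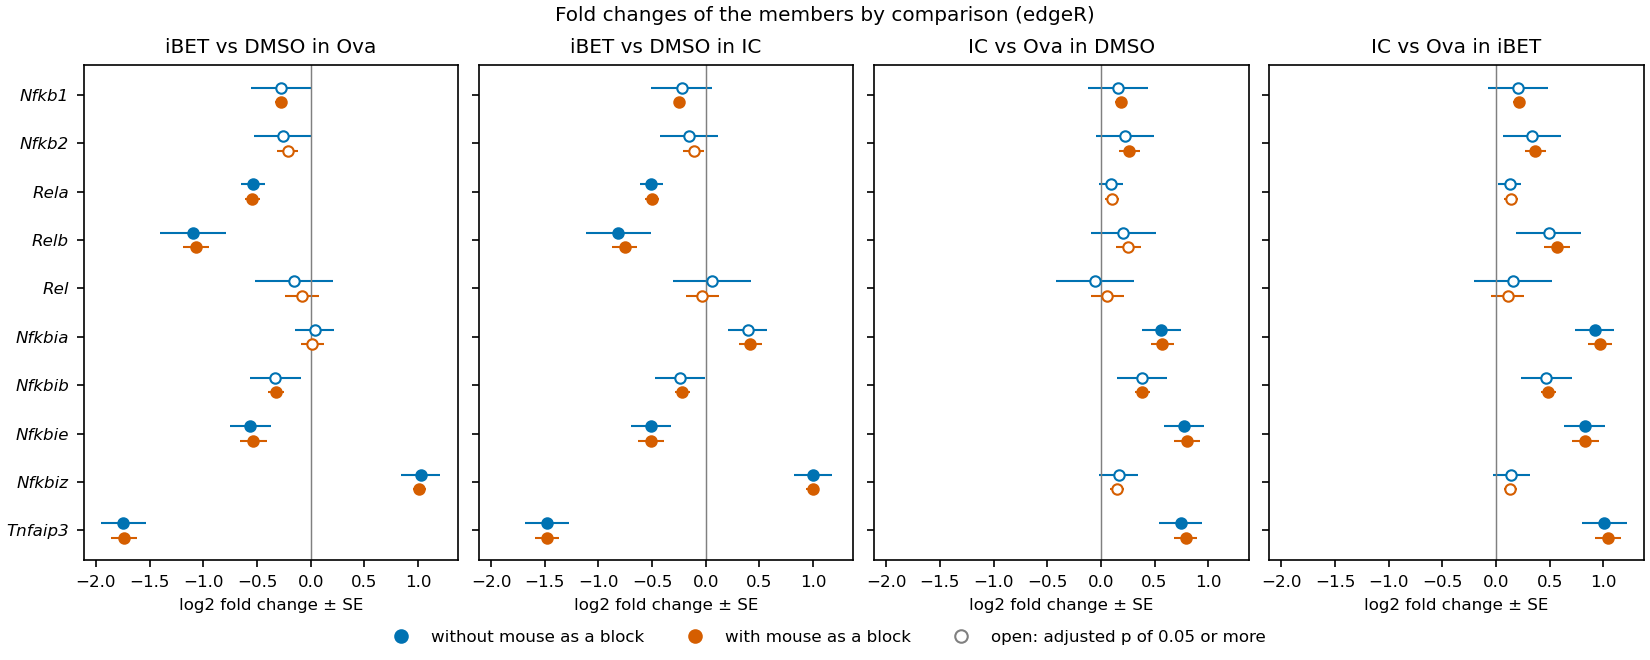
Log2 fold change of each member (horizontal axis) with its SE in the 4 comparisons, from edgeR without (blue) and with (orange) the mouse as a block, filled where the adjusted p was under 0.05. Tnfaip3 lies farthest to the left and Nfkbiz farthest to the right for iBET, and the block shortens the error bars of Nfkb1 (SE from 0.28 to 0.051 for iBET with Ova) without moving its estimate.

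Whether the effect of iBET depended on the stimulus was tested by the interaction, the iBET difference with IC minus that with Ova. None of the 10 members was called by edgeR, and none had an unadjusted p under 0.05, where 0.0401% of all tested genes were called. With the mouse as a block 0 members were called, 1 had an unadjusted p under 0.05, and 0.818% of all genes were called. The other alternatives that could give an interaction, the Wald test of DESeq2 with and without the block among them, also called 0 members, and the fit of only the 10 libraries compared holds too few groups to give one. The interaction estimate was largest for Nfkbia, at 0.36 ± 0.26 (adjusted p = 1.00, and 0.303 with the block), with the sign positive in 5 of 5 mice. It was 0.28 ± 0.43 for Relb and 0.27 ± 0.29 for Tnfaip3.

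Mice A and B stood apart from mice C, D and E in the second principal component of all genes, which held 14.9% of the variance, and no label names a batch. Most members moved with this split. Nfkb1 averaged 158 CPM in mice A and B and 301 CPM in mice C, D and E in DMSO Ova, Relb 47.8 and 117 CPM, Nfkb2 83.0 and 189 CPM, and Rel 23.9 and 67.1 CPM. For the 5 subunit genes, Nfkbia, Nfkbib and Tnfaip3, no value of mice A and B reached the lowest of the other 3 mice in any group. The share of all genes that separate in this way was not computed, so whether this is particular to the members is not known. Nfkbie overlapped between the sets in every group but DMSO Ova, and Nfkbiz went the other way, with 15.1 and 12.2 CPM in DMSO Ova.

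The sets also differed in how far several members moved, as the plot of ratios within each mouse shows. In mice A and B, Rel differed by 0.57 for IC under DMSO and by -0.42 for iBET with IC, against -0.24 and 0.25 in the other 3 mice. For iBET with Ova the values were 0.32 and -0.25. Nfkb2 was at 0.05 and 0.11 for iBET with Ova and with IC in mice A and B, and at -0.32 and -0.23 in the other 3 mice. Nfkbia rose with IC under iBET by 1.42 in mice A and B and by 0.67 in the others. For IC under DMSO, Nfkbie was at 1.24 and 0.57 and Tnfaip3 at 1.14 and 0.57. Relb was at -0.47 and -0.92 for iBET with IC and at 0.90 and 0.33 for IC under iBET. For iBET with Ova the sets lay closer together for Rela (-0.59 and -0.47), Nfkbiz (1.01 and 1.07) and Tnfaip3 (-1.67 and -1.73). These differences between sets of mice were not tested.

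**Figure D3:**
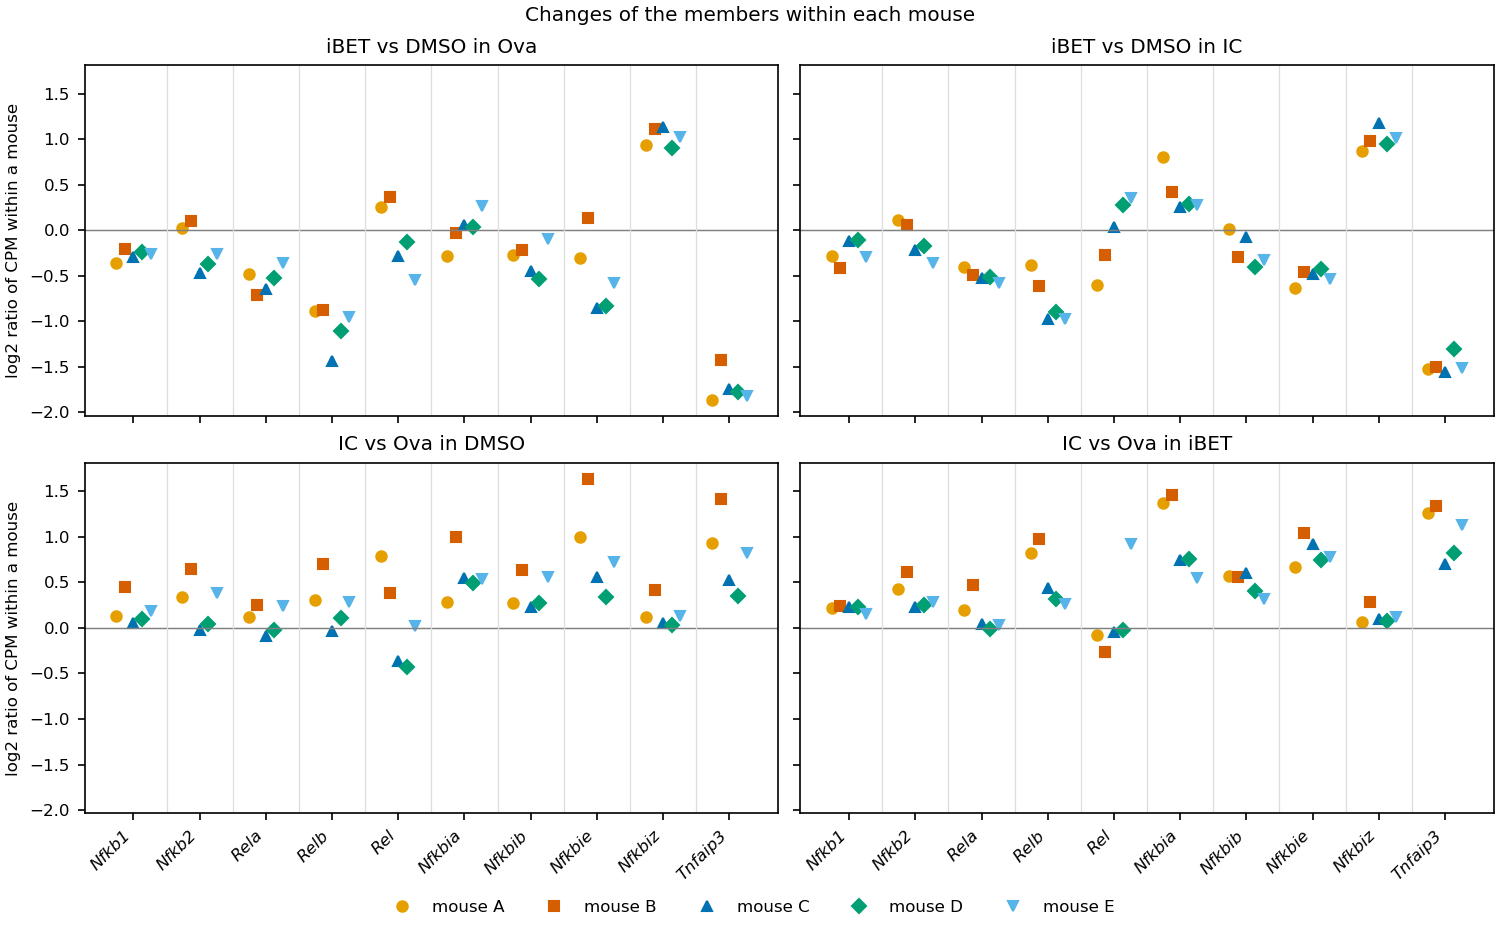
Log2 ratio of CPM within each mouse (vertical axis) for the 10 members in the 4 comparisons, with 1 symbol per mouse. All 5 mice lie on the same side of 0 for Tnfaip3 in every comparison, while for Rel the mice fall on both sides, from -0.61 to 0.36 for iBET with IC.

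Set against each other per kilobase, the summed transcripts of the cytoplasmic inhibitors Nfkbia, Nfkbib and Nfkbie stood at 1.02 ± 0.153 times those of the 5 subunits in DMSO Ova (SD, n = 5). The ratio was 1.33 ± 0.170 in DMSO IC, 1.31 ± 0.0792 in iBET Ova and 2.04 ± 0.340 in iBET IC. Every iBET IC library (1.72 to 2.40) lay above every library of the other groups (0.904 to 1.58). The sum of the inhibitors was 183 ± 12.1 CPM per kb in iBET IC and 153 ± 26.2 in DMSO IC, and that of the subunits 92.0 ± 18.6 and 118 ± 29.6 CPM per kb. Nfkbia makes up most of the sum of the inhibitors, and the ratio is a description of transcripts with no test. The height of the ratio also depends on the exon lengths used.

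Other regulators of the pathway were taken from a list of 14 genes, all of them tested. With iBET 4 rose and 7 fell with Ova (median log2 fold change -0.25), and 3 rose and 7 fell with IC (median -0.13), beside 27.7% higher and 28.9% lower of all tested genes with Ova and 27.1% and 29.0% with IC. Bcl3, an atypical nuclear IκB that binds p50 and p52, fell from 21.1 ± 6.08 to 3.62 ± 1.31 CPM with Ova (SD, n = 5) with a log2 fold change of -2.55 ± 0.23 (adjusted p = 1.76e-08), and of -2.69 ± 0.23 with IC (adjusted p = 7.24e-09). Tnip3, of the A20-binding proteins, also fell, at -2.95 ± 0.28 with Ova (adjusted p = 3.54e-08) and -2.21 ± 0.27 with IC (adjusted p = 9.17e-07). So did Tnip1, of the same family, at -0.64 ± 0.10 and -0.68 ± 0.10, and Nfkbid, another nuclear IκB, at -0.95 ± 0.11 and -0.82 ± 0.11. Nfkbiz thus rose in the same libraries in which Bcl3 and Nfkbid, the other nuclear IκB genes of the list, fell. IC under DMSO raised 4 of the 14 and lowered 1 (9.59% and 10.7% of all genes), with Tnip1 at 0.66 ± 0.10 (adjusted p = 0.000188), Rnf11 at 0.33 ± 0.08, the linear ubiquitin protease Otulin at 0.26 ± 0.07 and the ubiquitin ligase Itch at -0.37 ± 0.07. With the block 6 rose and 2 fell (18.3% and 19.8% of all genes). Under iBET IC raised 4 and lowered 0 (5.19% and 6.63% of all genes), and with the block 5 rose and 2 fell (14.2% and 14.7%).

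Of 31 upstream kinases and adaptors, 5 rose and 16 fell with iBET in Ova (median -0.27), beside 27.7% and 28.9% of all tested genes, and 5 rose and 15 fell in IC (median -0.24), beside 27.1% and 29.0%. Traf1, an adaptor of TNF receptors, fell at -2.26 ± 0.41 with Ova (adjusted p = 1e-04) and -2.36 ± 0.41 with IC (adjusted p = 6.26e-05). Birc3, a ubiquitin ligase that restrains the non-canonical pathway, fell as well (-1.51 ± 0.11 and -1.55 ± 0.11). Syk, the kinase that carries the signal of activating Fcγ receptors, fell from 410 ± 23.4 to 210 ± 6.42 CPM with Ova (-0.97 ± 0.05, adjusted p = 7.77e-12), and its value with IC was -0.92 ± 0.05. Birc2 (-0.88 ± 0.16 with Ova and -0.81 ± 0.16 with IC) and the IκB kinase relative Ikbke (-0.77 ± 0.13 and -0.85 ± 0.13) fell in both. IC under DMSO raised 7 and lowered 5 (9.59% and 10.7% of all genes), with Malt1 at 0.58 ± 0.15, Tbk1 at 0.47 ± 0.08 and Traf3 at 0.42 ± 0.07, and with Card9, an adaptor below Syk, at -0.72 ± 0.07 (adjusted p = 5.73e-07). Under iBET 4 rose and 3 fell with IC (5.19% and 6.63% of all genes), and 7 and 6 with the block (14.2% and 14.7%).

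NF-κB target genes were taken from a list of 36, of which 35 were tested. iBET raised 3 and lowered 19 with Ova, with a median log2 fold change of -0.96, and raised 2 and lowered 21 with IC, with a median of -0.92. The shares over the whole tested set were 27.7% higher against 28.9% lower in Ova, and 27.1% against 29.0% in IC. The Il12b subunit gene of IL-12 and IL-23 gave -2.62 ± 0.36 with Ova and -1.99 ± 0.32 with IC, a fall in both, and log2 fold changes were -2.32 ± 0.33 and -2.32 ± 0.28 for the chemokine gene Ccl4 and -2.60 ± 0.47 and -2.27 ± 0.46 for the costimulatory gene Cd80, which also fell. Ier3, an immediate early gene, rose by 1.93 ± 0.14 and 1.99 ± 0.14. IC raised 15 and lowered 0 under DMSO (26 and 1 with the block) and raised 12 and lowered 0 under iBET (23 and 1 with the block), with medians of 0.42 under each. All tested genes were called higher and lower by IC in 9.59% and 10.7% under DMSO and in 5.19% and 6.63% under iBET. With the block these shares were 18.3% and 19.8% under DMSO and 14.2% and 14.7% under iBET. Among target genes with a mean of at least 100 counts, the largest rises under DMSO were those of Clec4e, which encodes the receptor Mincle, at 1.81 ± 0.30 (adjusted p = 0.000341), Tnf at 1.78 ± 0.32 (adjusted p = 0.000737), Ccl4 at 1.66 ± 0.27 (adjusted p = 0.000315) and the prostaglandin synthase gene Ptgs2 at 2.34 ± 0.63 (adjusted p = 0.0132). Ptgs2 rested in part on a library at 44.8 CPM, since its median was 4.53 CPM in DMSO IC and 2.49 CPM in DMSO Ova.

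**Figure D4:**
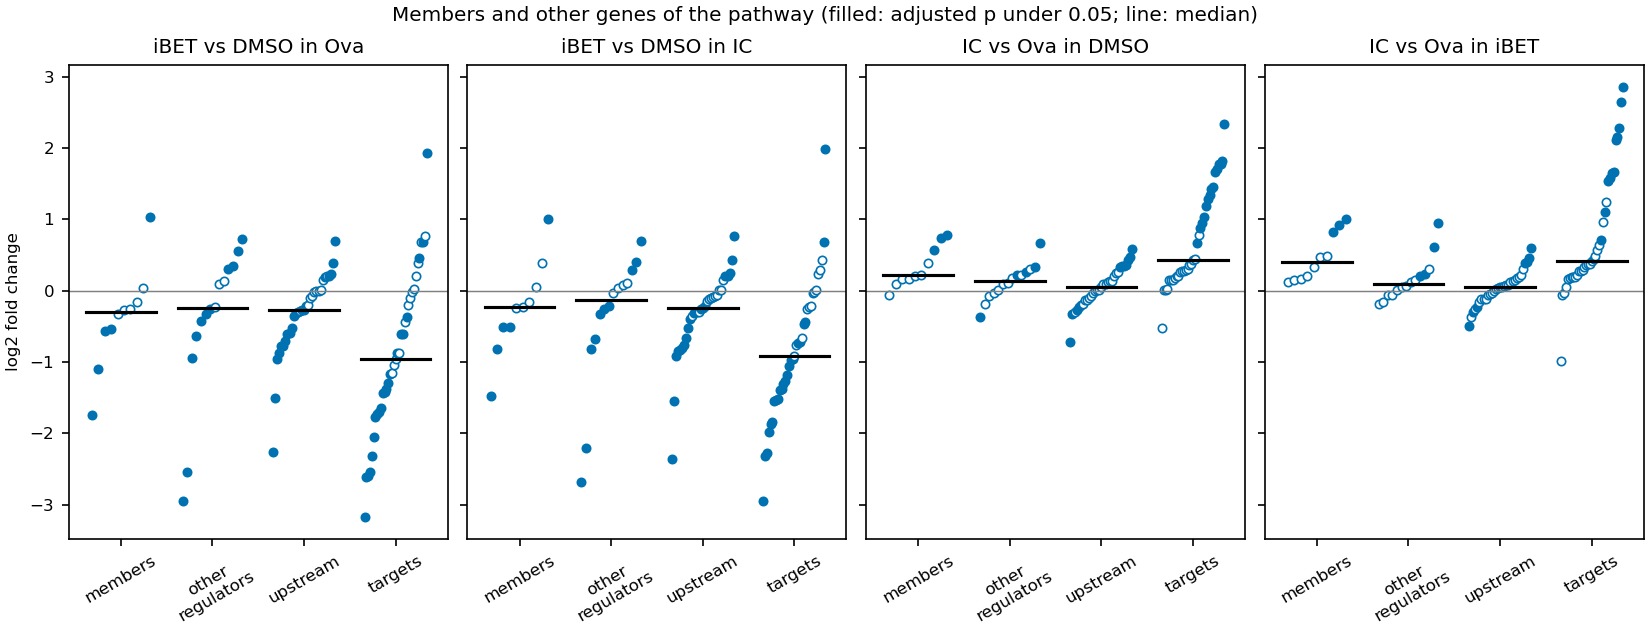
Log2 fold change (vertical axis) of the 10 members, the 14 other regulators, the 31 upstream genes and the 35 tested target genes in the 4 comparisons, 1 point per gene sorted by value within a list, filled where the adjusted p was under 0.05, with the median as a line. The target genes have the lowest median for iBET (-0.96 with Ova) and a median of 0.42 for IC under DMSO, and the members spread on both sides of 0 for iBET.

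By the correlation of log2 CPM over the 20 libraries, with 9772 other genes compared, Nfkb1 ran most like the chemokine receptor gene Ccr7 (r = 0.987) and Stk39 (r = 0.985). Relb and Rela shared Gpc1 as their closest gene (r = 0.970 and 0.968). Nfkb2 was closest to the dendritic cell transcription factor gene Zbtb46 (r = 0.966), which was also the second closest of Nfkbib (r = 0.957, after Hook1 at 0.959). Tnfaip3 was closest to Adam8 (r = 0.968) and to its fellow target Il12b (r = 0.967), Nfkbie to Cdc42ep2 (r = 0.970), Nfkbiz to Atp2a2 (r = 0.960) and Rel to Med13l (r = 0.955). Nfkbia had no partner above 0.878 (Nsfl1c). These values describe the 20 libraries, which share 5 mice and the strong differences between groups, and carry no test.

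Hexim1 and Brd2, genes often followed as markers of BET inhibition, rose with iBET, with Hexim1 higher by 2.57 ± 0.09 and Brd2 by 2.39 ± 0.08 with Ova and Brd3 higher by 0.21 ± 0.08 (adjusted p = 0.0282). Of the 8 dendritic cell markers all were counted, with a summed level of 4500 to 8579 CPM under DMSO and 4757 to 9516 CPM under iBET, while 8 macrophage markers summed to 1396 to 2133 CPM under DMSO and 1033 to 1713 CPM under iBET. With Ova the median dendritic cell sum was 5877 CPM under DMSO and 6343 CPM under iBET, and its most abundant genes Cd74 and Itgax averaged 2661 and 1962 CPM under DMSO and 3169 and 2108 CPM under iBET. The less abundant Flt3 and Ciita were near 0 under iBET (0.242 and 1.36 CPM with Ova, against 3.03 and 43.8 CPM under DMSO). The remaining markers H2-Aa, H2-Eb1, H2-Ab1 and Zbtb46 also averaged lower under iBET with Ova. They stood at 396, 206, 287 and 20.0 CPM, against 446, 248, 289 and 24.5 CPM under DMSO. Only Cd74 and Itgax averaged higher. The dendritic cell sum averaged 4661 CPM in mice A and B and 6358 CPM in mice C, D and E in DMSO Ova, and the macrophage sum 2047 and 1517 CPM. The markers of B, T and NK cells each summed to under 1 CPM in every library, and those of neutrophils to 18.1 to 60.4 CPM. The part of these markers in the results above was not tested, and in bulk RNA fewer cells of a type and less RNA per cell cannot be told apart.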

How the data were processed

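The 20 bulk RNA-seq libraries are from BMDCs of 5 mice, each sampled in all 4 groups. The authors trimmed the reads, used HISAT2 against mm10 for alignment and featureCounts for counts per gene, and versions are not given in the sources used here. The deposited files hold these counts, and the authors also deposited a table of signal values that are those counts divided by a size factor per library. Total counts per library ran from 16447491 to 29245150 (median 21764663), and libraries of a group differed by more than counting error (the chi-square over its degrees of freedom was 12.5 or more in each of 40 pairs), so errors are SDs between mice or SEs of the fit. The annotation and strand setting of the counting are not given in the sources used here.

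Genes were filtered with filterByExpr, scaled with TMM and tested with edgeR 4.0.16 (R 4.3.3) in 1 fit of the 4 groups, with Benjamini-Hochberg adjustment over 12465 genes and a threshold of 0.05. Replicates are cultures of different mice. The mouse letters pair the libraries, since the same animal gave 1 library per group, and same-mouse libraries deviated together from the group means (correlation 0.307 to 0.675, mean 0.524, in 30 pairs). Lengths are unions of exons of GENCODE M21, and promoter windows are RefSeq's on GRCm38.p6. Promoter windows of Nfkb1, Relb and Nfkbiz were not used here.

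The members and all lists were chosen with earlier results of these data known. The text names the 10 members, the 4 genes of each list with the largest log2 fold change among those called with a mean of at least 100 counts in the first 3 comparisons, the 2 genes most like each member (1 or both printed), and Hexim1, Brd2 and Brd3. A further gene that the rule names is not reported here. The 1 library that stands out for Ptgs2 was picked after its value was seen. Single values of the dendritic cell markers were likewise added after they were seen. Alternatives were the mouse as a block, the Wald test of DESeq2 1.42.0 with and without it, DESeq2's size factors, library size only, 3 surrogate variables of sva 3.50.0, no filter, the 10 libraries compared, log2 of the deposited signal plus 1 in limma 3.58.1, each mouse left out, and mice A and B or C, D and E alone. Simulated counts without differences between mice were used to try edgeR and DESeq2 with and without the block, limma and the surrogate variables. The other alternatives were not tried on simulated data.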

Additional observations from a re-analysis of the deposited data

How the results depend on the processing

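Over the 4 pairwise comparisons, the direction of each called member was the same in every alternative run. With the mouse as a replicate block, members called rose from 5 to 8 for iBET with IC, from 3 to 6 for IC under DMSO and from 3 to 7 for IC under iBET, with the same counts by DESeq2 with the block, and the block ended no call. Calls over all genes went with the block from 6990 to 8473 for iBET with IC and from 2531 to 4755 for IC under DMSO. They went from 1474 to 3601 for IC under iBET and from 5 to 102 for the interaction. With DESeq2 and the block the counts were 8341, 4611, 3594 and 184. DESeq2 without the block called 25 genes for the interaction. Surrogate variables gave 8, 9, 6 and 6 members for iBET with Ova, iBET with IC, IC under DMSO and IC under iBET. Over all 12465 genes tested they gave 8712, 8465, 4062 and 3102, and 47 for the interaction. Library size only gave 2343 genes for IC under iBET. Mice C, D and E alone gave 8, 8 and 5 members for iBET with Ova, iBET with IC and IC under iBET. The counts over all 12534 genes tested were 7350, 7195 and 1188, and 13 for the interaction. Mice A and B alone gave 500, 296 and 0 genes for IC under DMSO, IC under iBET and the interaction. Fewer libraries are in these last fits, and the cause of the other changes was not tested.

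Leaving out 1 mouse, members called ran from 3 to 5 for iBET with IC and from 1 to 3 for IC under DMSO. Genes called ran from 6119 to 6721 for iBET with IC and from 1180 to 2477 for IC under DMSO. They ran from 643 to 1177 for IC under iBET and from 0 to 2 for the interaction. Reversals were confined to differences under the threshold in the main fit. Rel for iBET with IC turned to -0.032 with the block, -0.038 with DESeq2 and the block, -0.20 with surrogate variables (adjusted p = 0.0327), -0.035 with the deposited signal, -0.42 in mice A and B, and ran from -0.056 to 0.15 with 1 mouse left out. Rel for IC under DMSO turned to 0.060, 0.080, 0.30 (adjusted p = 0.0087), 0.081 and 0.57 in the same settings, and ran from -0.17 to 0.076. Rel for IC under iBET turned to -0.17 in mice A and B and ran from -0.083 to 0.24. In mice A and B, Rel and Nfkb2 for iBET with Ova turned to 0.32 and 0.054, and Nfkb2 for iBET with IC to 0.11. Nfkbia for iBET with Ova turned to -0.017 with library size only and -0.18 in mice A and B, and ran from -0.037 to 0.097. Rela for IC under DMSO turned to -0.016 with library size only.

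Interaction estimates near 0 also turned. Surrogate variables gave -0.0023 for Rela, -0.12 for Rel and 0.056 for Nfkbiz. Mice A and B gave -0.035 for Nfkb1, -0.74 for Rel and -0.39 for Nfkbie, and mice C, D and E -0.048 for Rela and 0.012 for Nfkbiz. The deposited signal gave -0.019 for Nfkbie. With 1 mouse left out, Nfkb1 ran from -0.00028 to 0.077, Rela from -0.014 to 0.099, Nfkbie from -0.057 to 0.14 and Nfkbiz from -0.041 to 0.0016. Every member had at least 198 counts in each library. The parts of counting error and of the spread between mice in the SEs were not tested.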
